A study of Mus musculus with 16 samples.

Results

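In XX and XY mouse ES cells, 1583 stretches of chromatin carried H3K27Me3 alone, away from gene starts and in the region lists of both sexes. They were found by merging the XX and XY lists of H3K27Me3 regions into stretches on chromosomes 1 to 19. A stretch was kept where both lists covered it, it lay over 5 kb from every protein-coding transcription start site (TSS), it overlapped no H3K27Ac and no H3K4Me1 region of either list by as much as 1 bp, and it was under 20 kb wide. Of 20845 merged stretches, 10118 were covered in both lists and 4191 of those lay over 5 kb from a TSS. H3K27Ac was absent from 3275 of these, H3K4Me1 as well from 1589, and the width limit removed 6 more. The XX list covered 6.10 Mb of these solitary stretches, the XY list 5.72 Mb and both lists the same 4.17 Mb. The stretches were thus selected on the listed H3K27Me3, H3K27Ac and H3K4Me1 regions themselves, on distance and on width, and the values of these are descriptions and not findings.

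The study compared the chromatin of female (XX) and male (XY) ES cells through ChIP-seq, in which DNA bound to a modified histone is precipitated and sequenced. The labels give 16 libraries, with 2 XX lines and 2 XY lines for each of 3 marks, and for each sex 1 library of IgG and 1 of input. All lines came from F1 hybrids of C57BL/6 and CAST/EiJ mice, were at passage 7 to 10 and were grown in serum with LIF on inactivated fibroblasts, which the methods describe as C57BL/6 cells from pooled embryos of both sexes that were depleted before harvest. The values are 6 lists of enriched regions in mm9 coordinates, 1 per sex and mark, without heights or read counts. A list therefore has no replicate, the depth behind it is unknown, and no test between XX and XY ES cells was possible. The H3K27Me3 lists held 18534 regions for XX and 15138 for XY ES cells, and the XX list was also the longer one for the other marks.

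H3K27Me3 is written by Polycomb repressive complex 2 and is known in ES cells for covering the CpG-rich promoters of silent developmental genes. H3K4Me1 marks enhancers whether active or not, and H3K27Ac is added at active enhancers and promoters. Distal chromatin with both H3K27Me3 and H3K4Me1 is commonly called a poised enhancer, while distal H3K27Me3 with no enhancer mark is the least described form. For this reason the solitary stretches were set beside 1643 poised stretches, which differed only in overlapping H3K4Me1, and beside 4444 stretches that met every step except that H3K27Me3 was in 1 list only, 2831 of them in the XX list and 1613 in the XY list. The 5276 stretches of both lists within 5 kb of a TSS and under 20 kb wide served as a further point of orientation. These were taken with or without H3K27Ac and H3K4Me1.

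The sequences behind the stretches were diverse, and 4 windows of 300 bases show their range. Each is the window with the most CpG dinucleotides in its stretch, read from the plus strand of the mm9 genome (NCBIM37) with every CpG in capitals. The first was in the stretch upstream of Ppp1r13b, whose product is a p53-binding protein, and held 59 CpGs at a GC content of 83.3%. The second was in the stretch with the most CpGs per kb of all, near the beta-defensin gene Defb7, and held 47 CpGs at 79.3% GC. The third was in an intron of Anks1b, which codes for a postsynaptic protein, within one of the stretches with the most bases in both lists, and held 50 CpGs. The fourth was in the stretch with the most bases in both lists, far upstream of Tmco5, where even the richest window held only 4 CpGs at 52.0% GC.
Ppp1r13b, chr12:113145973-113146272: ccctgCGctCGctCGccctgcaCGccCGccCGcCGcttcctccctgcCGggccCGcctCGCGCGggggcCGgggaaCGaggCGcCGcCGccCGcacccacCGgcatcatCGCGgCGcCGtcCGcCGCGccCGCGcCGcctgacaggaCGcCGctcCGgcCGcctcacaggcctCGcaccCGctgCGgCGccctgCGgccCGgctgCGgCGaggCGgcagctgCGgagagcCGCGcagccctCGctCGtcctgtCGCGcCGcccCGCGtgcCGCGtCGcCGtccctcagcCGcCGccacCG
Defb7, chr8:19535313-19535612: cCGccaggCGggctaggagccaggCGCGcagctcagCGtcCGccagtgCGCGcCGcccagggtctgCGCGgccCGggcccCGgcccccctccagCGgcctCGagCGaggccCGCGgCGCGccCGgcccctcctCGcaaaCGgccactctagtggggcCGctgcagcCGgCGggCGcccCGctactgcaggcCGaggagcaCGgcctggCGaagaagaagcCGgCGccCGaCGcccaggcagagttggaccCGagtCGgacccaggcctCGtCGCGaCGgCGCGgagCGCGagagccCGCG
Anks1b, chr10:90291816-90292115: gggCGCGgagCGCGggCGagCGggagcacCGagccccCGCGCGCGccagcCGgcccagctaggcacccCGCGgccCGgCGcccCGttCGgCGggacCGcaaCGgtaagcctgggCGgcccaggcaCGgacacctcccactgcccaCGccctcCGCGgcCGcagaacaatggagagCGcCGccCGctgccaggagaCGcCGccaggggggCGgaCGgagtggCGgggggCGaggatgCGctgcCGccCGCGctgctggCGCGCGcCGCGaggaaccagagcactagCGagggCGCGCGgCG
Tmco5, chr2:116378773-116379072: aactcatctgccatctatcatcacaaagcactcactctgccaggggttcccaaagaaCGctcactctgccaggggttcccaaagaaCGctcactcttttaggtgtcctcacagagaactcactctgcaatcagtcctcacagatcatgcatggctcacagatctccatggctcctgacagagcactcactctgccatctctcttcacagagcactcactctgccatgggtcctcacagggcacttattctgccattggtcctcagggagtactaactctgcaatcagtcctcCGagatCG

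CpG islands were present in a minority of the solitary stretches and in a majority of the poised ones. An island was counted where a window of at least 200 bp had at least 50% GC and a ratio of observed to expected CpGs of at least 0.6. Of the 1583 solitary stretches 648 held an island (40.9%, exact binomial 95% interval 38.5 to 43.4%), against 1146 of 1643 poised stretches (69.8%, 67.5 to 72%). The difference passed a two-sided Fisher's exact test (odds ratio 0.301, adjusted p = 9.72e-61). It was smaller but still passed among stretches 2 to 5 kb wide, with 31.1% of 861 solitary and 54.4% of 563 poised stretches (exact test, odds ratio 0.380, adjusted p = 2.32e-17). The median density was 10.8 CpGs per kb in solitary stretches, 14.0 in poised stretches and 18 in those near gene starts. The median GC content was 45.4% in solitary and 47.3% in poised stretches. The intervals and p-values here and below cover counting error over stretches, which are not replicates of a condition.

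Islands were also more frequent in solitary stretches than in those of 1 list only, but the difference did not pass the test among stretches 2 to 5 kb wide. The 1-list stretches held an island in 1119 of 4444 cases (25.2%, 23.9 to 26.5%, exact test, odds ratio 2.06, adjusted p = 2.14e-30). Their median width was 2.60 kb, against 4.0 kb for the solitary stretches of both lists. Among stretches 2 to 5 kb wide the shares were 31.1% of 861 solitary and 29.1% of 2301 1-list stretches (exact test, odds ratio 1.10, adjusted p = 0.439). With a stricter island of at least 500 bp, 55% GC and a ratio of 0.65, 102 solitary stretches (6.44%) qualified, against 18.5% of poised, 1.53% of 1-list and 64.1% of gene start stretches.

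**Figure D1:**
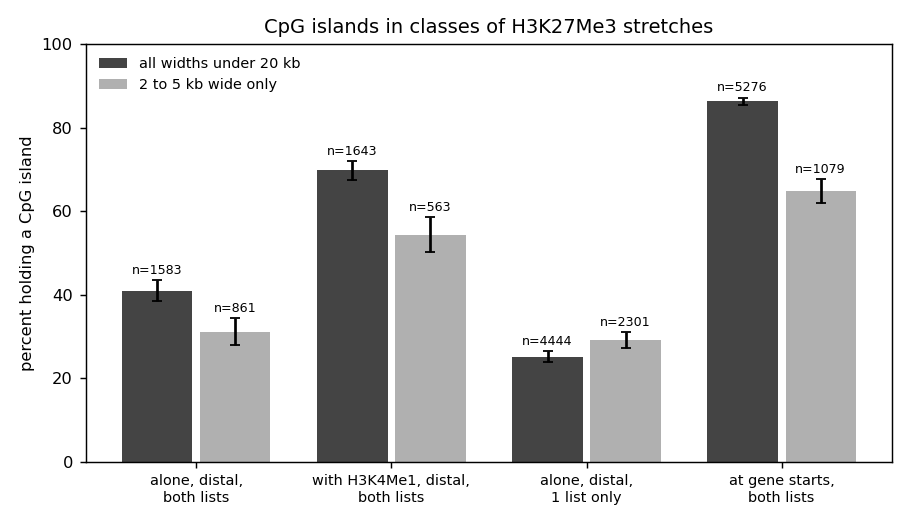
Percent of stretches that held a CpG island (vertical axis) in 4 classes of H3K27Me3 stretches, for all widths (dark bars) and for widths of 2 to 5 kb (light bars); error bars are exact binomial 95% intervals and n is the number of stretches. Solitary stretches of both lists sit at 40.9% and 31.1%, below the poised stretches at 69.8% and 54.4%.

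The solitary stretches with an island were wider than the others and more often held the start of a gene not annotated as protein-coding. The 648 with an island had a median width of 5.40 kb and a median of 13.6 CpGs per kb. For the 935 without one the values were 3.40 kb and 8.96 CpGs per kb. An island is itself defined by CpGs, so the higher density follows in part from the definition. The nearest protein-coding gene start lay at a median of 27.8 kb from those with an island and 23.7 kb from those without, and it carried H3K27Me3 in 61.4% and 57.8% of cases. A protein-coding gene body held 27.6% of those with an island and 21.8% of those without. Another gene start lay in 6.79% and 2.46%. These values have no test. A wider stretch offers more windows, and the share with an island was 12.6% under 2 kb, 31.1% from 2 to 5 kb, 62.8% from 5 to 10 kb and 78.5% of the 93 stretches of 10 to 20 kb.

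The 10 solitary stretches with the most CpGs per kb held 25.4 to 30.8 CpGs per kb and 2.40 to 6.80 kb covered in both lists. All 10 held an island, which a choice by CpG density favours. The nearest gene start carried H3K27Me3 for 1 of them, Zfp516, a zinc finger gene, against 59.3% of all solitary stretches. The stretch at chr8:19533801-19538599 headed the group with 30.8 CpGs per kb and lay between protein-coding genes, 38.7 kb downstream of Defb7. It was covered over 4.20 kb in the XX list and 4.80 kb in the XY list, and it held the annotated start of Gm16425. The stretch at chr8:3992801-3997399, 38.1 kb upstream of the lectin gene Cd209c, had the same edges in both lists, 4.60 kb in each. That at chr12:113143001-113151599, 32.2 kb upstream of Ppp1r13b, was covered over 8.40 kb in XX and 7.00 kb in XY. The stretch near St18, a zinc finger gene of neurons, was covered over 3.00 kb in XX and 5.80 kb in XY, and that inside Grin2b, an NMDA receptor subunit, over 5.20 kb in XX and 2.60 kb in XY. Of the 10, 7 lay over 40 kb from any other H3K27Me3 stretch. Over all solitary stretches that gap had a median of 8.40 kb and an upper quartile of 30.5 kb. These 10 are extremes of 1 ranking, and their counts were not tested.

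The 10 stretches with the most bases in both lists covered 11.4 to 16.4 kb in both, the measure they were chosen by. For 8 of them the nearest gene start carried H3K27Me3, against 59.3% of all solitary stretches. Another H3K27Me3 stretch lay within 10 kb of 7, against 53.3% of all. Neither count was tested. The widest shared cover was at chr2:116371801-116390599, 314 kb upstream of Tmco5, with 17.0 kb in the XX list and 18.2 kb in the XY list but only 1.81 CpGs per kb and no island. The stretch 13.0 kb downstream of Six2, which codes for a transcription factor of kidney progenitors, covered 17.6 kb in XX and 17.0 kb in XY. That upstream of Hsf2, a heat shock factor, covered 15.2 kb in each list, and the start of Hsf2 itself carried H3K27Ac and no H3K27Me3. The remaining members of the group lay in introns or between protein-coding genes. The introns were those of Anks1b, of Cyp46a1, which codes for the cholesterol hydroxylase of neurons, of Gm12830 and of Nrg2, a neuregulin. The others were near 1700020O03Rik, Epb4.1l3 and Pax3.

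The XX and XY lists often covered a solitary stretch to different extents, and neither list was the wider one throughout. The XX list covered more bases in 790 stretches (49.9%) and the XY list in 698 (44.1%), and 95 were equal. Over all 10118 stretches of both lists the XX list covered more in 56.8%. The median of XX over XY bases was 1.0 in solitary stretches, 1.11 in poised stretches and 1.07 over all stretches of both lists. The XX list was at least 1.5-fold wider in 415 solitary stretches (26.2%), against 22.1% of all stretches of both lists. The XY list was at least 1.5-fold wider in 349 (22.0%), against 12.2% of all. Solitary stretches were narrower, with a median of 4.0 kb against 7.20 kb for all stretches of both lists. At widths of 2 to 5 kb the XX list was 1.5-fold wider in 22.9% of solitary stretches and 24.4% of all. The XY list was so in 23.2% and 17.2%. These values have no test, since each sex has 1 list.

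Width moved with the balance between the sexes. The XX list covered more bases in 46.3% of solitary stretches 2 to 5 kb wide and in 56.4% of those 5 to 10 kb wide. The XY list covered more in 47.04% and 41% of them, so from 2 to 5 kb it was ahead by a few stretches. Over all stretches of both lists the same shares were 50.8% and 56.6%. By chromosome, stretches with more XX bases outnumbered those with more XY bases on 13 of 19 autosomes, and the reverse held on 6. When the longer list of each mark was reduced to its widest regions, to the length of the shorter one, 60.6% of the remaining 1190 solitary stretches had more XX bases. This step removed narrow regions from the XX lists alone.

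**Figure D2:**
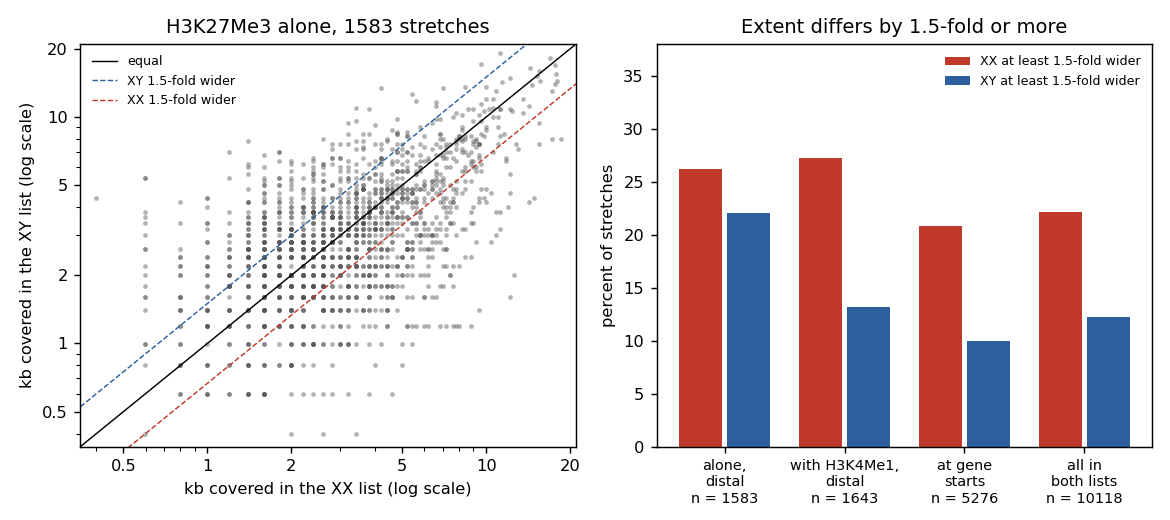
Left, kb covered in the XX list (horizontal axis) and in the XY list (vertical axis, both log scales) for each of the 1583 solitary stretches, with lines for equal cover and for a 1.5-fold difference either way. Right, percent of stretches at least 1.5-fold wider in the XX list (red) or in the XY list (blue), which were 26.2% and 22.0% of solitary stretches and 22.1% and 12.2% of all stretches of both lists. Widths are not matched between the classes.

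The stretches at the ends of this range were nearly confined to 1 list. The largest ratio, 8.52, was at chr13:50037201-50040599 near Gm17611, with 3.40 kb in the XX list and 0.399 kb in the XY list. In an intron of Nos1, the neuronal nitric oxide synthase, the XX list covered 12.2 kb and the XY list 1.60 kb, and in an intron of Sez6l, a neuronal membrane protein, the values were 8.80 kb for XX and 1.20 kb for XY. The other 2 stretches at that end lay near Med13l and Slc47a1. At the opposite end the stretch 30.1 kb downstream of Slc35d3 had 0.399 kb in the XX list and 4.40 kb in the XY list. Upstream of Ebf2, a transcription factor of adipocytes and bone, the values were 0.599 kb for XX and 5.40 kb for XY, and the same 2 values held near Sypl. The other 2 lay near Nanos1 and Pdcd6ip.

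Where each list had a single region in a stretch, the edges differed by a few bins of the 200 bp grid. This was the case in 1503 of the 1583 solitary stretches. Their edges in the XX and XY lists were a median of 0.60 kb apart, and 27.9% of edges were within 1 bin. The XX region lay inside the XY region in 396 stretches, the XY region inside the XX region in 501, both had the same edges in 30, and in 576 the regions were staggered. The median share of a stretch covered in both lists was 56.0% in solitary and 61.9% in poised stretches.

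The part of a stretch covered in both lists was slightly richer in CpGs than its flanks. Bases of solitary stretches covered in both lists held 12.4 CpGs per kb, those in the XX list alone 10.8 and those in the XY list alone 10.4. In poised stretches the values were 15.8, 12.8 and 11.5. Stretch by stretch, the shared part was richer in 861 of 1550 solitary stretches (55.5%) and in 1100 of 1623 poised stretches (67.8%).

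Solitary stretches lay mostly between protein-coding genes. The midpoint was outside every protein-coding gene in 1200 stretches (75.8%), in an intron of one in 356 and in an exon in 27. Genes of other kinds were not counted here. The share in a gene body, 24.2% (22.1 to 26.4%), was lower than the 28.0% (25.8 to 30.2%) of poised stretches (Fisher's exact test, odds ratio 0.821, adjusted p = 0.0193) and than the 28.3% (27 to 29.7%) of 1-list stretches (odds ratio 0.808, adjusted p = 0.00255). Both calls were lost when the distance to a TSS was raised to 10 kb (exact tests, adjusted p = 0.174 and 0.0848). The call against poised stretches was also lost with regions up to 1 kb apart merged (exact test, adjusted p = 0.086), and that against 1-list stretches at widths of 2 to 5 kb (exact test, adjusted p = 0.124). The genes with the most solitary stretches inside them were Skap1 with 8, Gm20388 with 6 and Fgfr2, a fibroblast growth factor receptor, with 5.

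The distance limit was 5 kb and the median distance to a protein-coding TSS was 25.2 kb. Of the 1583 stretches 279 lay within 10 kb, 830 from 10 to 50 kb, 260 from 50 to 100 kb and 214 (13.5%) beyond. Beyond 500 kb there were 7, the farthest of them 730 kb from Fam135b, where the XX list covered 2.80 kb and the XY list 0.599 kb. At the limit itself the nearest stretch kept lay 5002 bp from a TSS and the nearest left out 5000 bp, from Fgf1. At the width limit the widest stretch kept was 19999 bp, beside Pax3, and the narrowest left out was 20599 bp, near Llgl1. Median cover in both lists was 2.20 kb within 10 kb of a TSS and 2.0 kb beyond 100 kb, and the share with an island was 37.3% and 41.6%.

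Other marks were usually well away from the solitary stretches. The nearest H3K4Me1 region lay at a median of 11.4 kb and the nearest H3K27Ac region at 26.2 kb, and 1182 stretches (74.7%) had no H3K4Me1 within 5 kb. Few stood at the edge of the definition, with 70 within 1 kb of H3K4Me1, 8 of them in the next bin of the grid, and 16 within 1 kb of H3K27Ac. The next H3K27Me3 stretch of either list was closer, at a median of 8.40 kb, and 844 stretches (53.3%) had one within 10 kb, against 62.5% of poised and 42.3% of 1-list stretches. At the other extreme, 135 stretches (8.53%) stood over 100 kb from any other H3K27Me3. These isolated stretches covered a median of 1.60 kb in both lists, and 34.1% held an island, against 2.20 kb and 42.3% of those within 10 kb of another stretch.

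**Figure D3:**
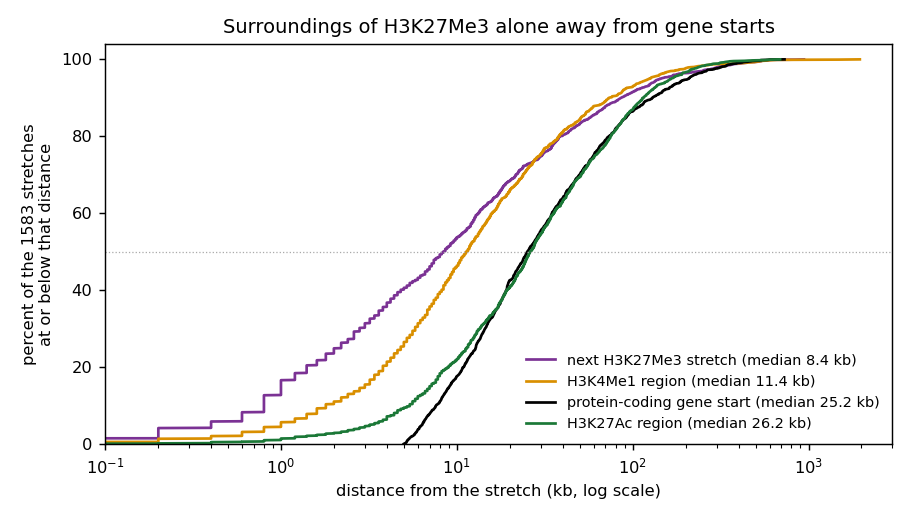
Cumulative percent of the 1583 solitary stretches (vertical axis) by distance in kb (log scale, from 0.1 kb) to the next H3K27Me3 stretch, the nearest H3K4Me1 region, the nearest protein-coding gene start and the nearest H3K27Ac region. The medians are 8.40, 11.4, 25.2 and 26.2 kb, and the gene start curve begins at the 5 kb limit.

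The gene starts nearest to solitary stretches often carried H3K27Me3 themselves. Marks at a gene start were those with a region of either list 2 kb or less from a TSS of the gene, which is outside the space the stretches could occupy. The nearest start carried H3K27Me3 for 938 solitary stretches (59.3%, 56.8 to 61.7%), against 61.6% (59.2 to 64%) of poised stretches (Fisher's exact test, odds ratio 0.907, adjusted p = 0.183) and 56.3% (54.9 to 57.8%) of 1-list stretches (odds ratio 1.13, adjusted p = 0.0543). Neither difference passed the threshold, and the intervals leave room for differences of a few percentage points. The stretches had 1348 different nearest genes, and 57.5% of these carried H3K27Me3 at a start, against 37.2% of all 21418 autosomal protein-coding genes. By list, the nearest genes carried it in 54.4% of cases in XX and 50.1% in XY ES cells. The share differed with the surroundings. For the 844 solitary stretches within 10 kb of another H3K27Me3 stretch, the nearest start carried H3K27Me3 in 71.7%. For the 135 over 100 kb from any other it did so in 19.3%. H3K27Me3 at a start counts as another stretch, so these 2 measures are not independent, and the difference was not tested.

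Some of the nearest gene starts carried H3K27Ac, at a share below that of all autosomal protein-coding genes. The nearest start carried H3K27Me3 without H3K27Ac for 565 solitary stretches (35.7%), both marks for 373 (23.6%), H3K27Ac without H3K27Me3 for 390 (24.6%) and neither for 255 (16.1%). For poised stretches the same shares were 28.7%, 32.9%, 27% and 11.4%. H3K27Ac lay at the nearest start of 48.2% of solitary stretches, against 59.9% of poised and 50.3% of 1-list stretches, and at 54.2% of all autosomal protein-coding genes. The stretches beside starts with H3K27Me3 alone covered a median of 2.20 kb in both lists and those beside starts with H3K27Ac alone 2.0 kb. They held 11.2 and 10.1 CpGs per kb, an island in 41.1% and 36.4%, and more XX bases in 47.4% and 51.5%.

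Some stretches held the start of a gene that is not annotated as protein-coding. There were 67 (4.23%, 3.29 to 5.34%), fewer than the 8.70% of poised stretches (7.38 to 10.2%, Fisher's exact test, odds ratio 0.464, adjusted p = 5.96e-07) and more than the 2.09% of 1-list stretches (1.69 to 2.56%, odds ratio 2.07, adjusted p = 3.04e-05). Among stretches 2 to 5 kb wide the share equalled that of 1-list stretches, 2.44% and 2.43% (exact test, adjusted p = 1). The annotation gave 31 of the 67 as pseudogenes, 13 as processed transcripts and 5 as miRNAs. A few were immunoglobulin gene segments, Gm16611 among them, which the annotation keeps apart from protein-coding genes. By cover in both lists the first 5 were a U1 gene inside Gm12830, Gm16611, AC149593.1, Gm13652 on chromosome 2 and C230030N03Rik, which lay in a stretch of 7.80 kb with the same edges in both lists.

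Genes of developmental transcription factor families were nearest to 64 of the 1583 solitary stretches, and to 65 of the 1643 poised ones. Of 217 genes of developmental transcription factor families, 42 (19.4%) were the nearest gene of at least 1 solitary stretch, against 6.29% of all autosomal protein-coding genes, and 51 were the nearest gene of a poised stretch. Of the 42 genes 41 carried H3K27Me3 at a start, as did 90.3% of the whole list. Pax3 had 8 stretches, Dlx2 had 3, and Gata4, Sox9, Sox17, Tbx4, Barhl1 and Lhx5 were among those with 2. The 3 of Dlx2, a homeobox gene of the forebrain, covered 21.4 kb in XX and 16.2 kb in XY, and the 2 of Gata4, a heart and endoderm factor, 3.40 kb in XX and 7.40 kb in XY. The median distance of the 64 stretches was 28.9 kb. The XX list covered more bases in 23 of the 64 and the XY list in 38, so 35.9% had more XX bases, against 49.9% of all solitary stretches. Without the 8 at Pax3 the counts were 22 for XX and 31 for XY. Other lists leaned either way. More XY bases were also found for channels (16 stretches, against 11 with more XX bases), neurotransmitter receptors (8 against 6) and cadherins (6 against 2). The same held for pluripotency regulators (3 against 2) and imprinted genes (12 against 5). More XX bases were found in 8 and more XY bases in 3 of the 11 stretches of ligand families. Axon guidance genes had 5 and 1, ribosomal proteins 4 and 1, and olfactory and vomeronasal receptors 3 and 1. Regulators that RNA-seq of such lines gave for XX ES cells had 2 and 0, and those for XY ES cells 9 and 6. Collagens, laminins and matrix proteases had 4 and 4. These balances have no test.

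Among signalling and neuronal lists, ligand families, channels and neurotransmitter receptors had shares above the 6.29% of all genes, and other lists lay nearer to it. Of 62 genes of the Wnt, Fgf, Bmp and hedgehog families 10 (16.1%) had a solitary stretch. The list goes by family, and not every gene in it need code for a ligand. Fgf12 had 2 stretches, one of them covered over 7.20 kb in XX and 4.40 kb in XY. A stretch in an exon of Wnt9b, a ligand of kidney and face development, covered 6.00 kb in XX and 4.20 kb in XY. Of 122 potassium, calcium and sodium channel genes 21 (17.2%) had one, among them the sodium channel Scn8a with 3 inside the gene, covered over 10.4 kb in XX and 20.8 kb in XY, and the potassium channel Kcnd3 with 2, where one stretch covered 9.0 kb in XX and 9.60 kb in XY. Of 92 neurotransmitter receptor genes 12 (13.0%) had one, led by the dopamine receptor Drd5 with 3. A stretch near Gabrd, a GABA receptor subunit, covered 10.8 kb in XX and 3.80 kb in XY. Cadherins and protocadherins had 7 of 65 (10.8%), axon guidance genes 6 of 69 (8.70%), and collagens, laminins and matrix proteases 8 of 99 (8.08%), each within a few genes of the share of all genes.

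Lists of other kinds gave a range from near 0 to well above the background. Only 4 of 1425 olfactory and vomeronasal receptor genes (0.281%) had a solitary stretch, and 1.82% of that list carried H3K27Me3 at a start. Cytosolic ribosomal protein genes had 5 of 72 (6.94%). Of 18 regulators listed for XX ES cells 2 had a stretch, Meis2 and Trim16, and of 44 listed for XY ES cells 10 (22.7%) had one, led by the T-box gene Eomes with 3. Both sets of regulators come from the RNA-seq of such lines, so they are no independent evidence. The stretch 34.3 kb upstream of Eomes covered 6.00 kb in XX and 8.20 kb in XY, and that 48.0 kb downstream of Foxi3 covered 9.60 kb in XX and 11.4 kb in XY. Gene lists differ in the space around their genes, which also sets how many stretches are nearest to them, and the part of this in the shares was not tested.

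**Figure D4:**
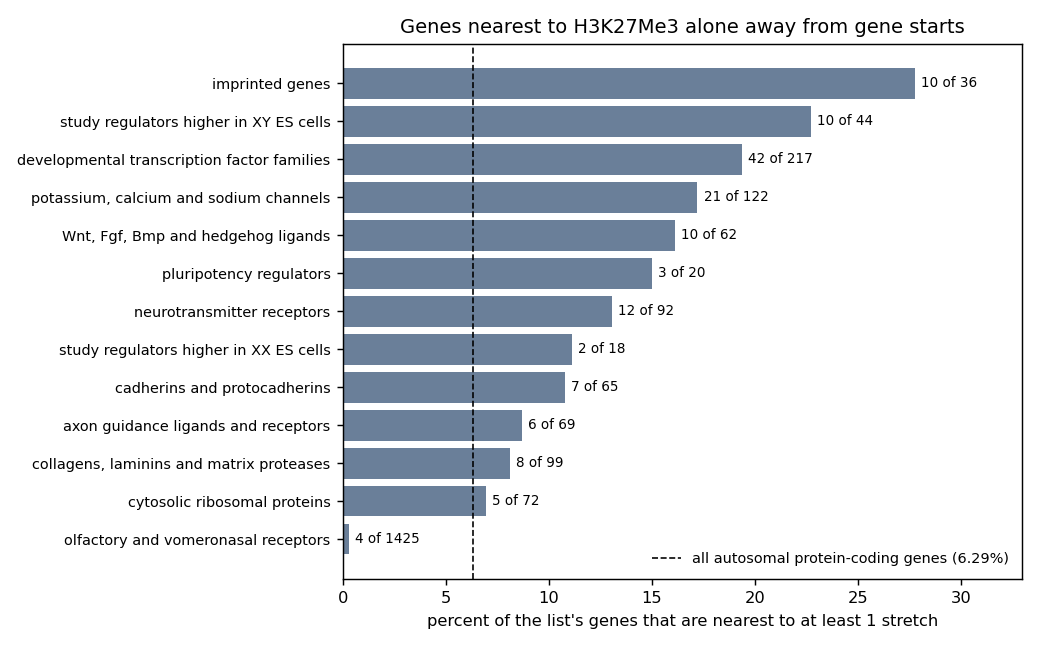
Percent of the genes of each list that were nearest to at least 1 solitary stretch (horizontal axis), with the number of genes beside each bar and a dashed line at 6.29%, the share of all autosomal protein-coding genes. Imprinted genes, at 27.8%, and developmental transcription factor families, at 19.4%, lie above the line, and olfactory and vomeronasal receptors, at 0.281%, below it.

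Imprinted genes, which are expressed from one parental copy, had the highest share of any list. Of 36 such genes 10 (27.8%) were nearest to a solitary stretch, with 19 stretches in all, and the XX list covered more bases in 5 of them and the XY list in 12. Rasgrf1, an exchange factor for Ras whose imprinting depends on a control region upstream of the gene, had 4. Those 34.4 and 21.2 kb upstream covered 8.80 and 11.2 kb in the XX list and 6.20 and 10.8 kb in the XY list. Inside the gene a stretch covered 2.0 kb in XX and 3.60 kb in XY and another 4.60 kb in XX and 5.20 kb in XY. Dlk1 and Dio3 mark the ends of one imprinted domain on chromosome 12 and had 3 stretches each. Those of Dlk1, a Notch-related surface protein, lay 9.35, 12.3 and 31.1 kb downstream, and the second of them covered 5.20 kb in XX and 6.00 kb in XY with 1.20 kb in both. Of those of Dio3, which inactivates thyroid hormone, one covered 2.60 kb in both lists and another 6.80 kb in XX and 1.20 kb in XY. The third, 264 kb upstream, covered 2.0 kb in XX and 4.80 kb in XY, and 50.5% of its 50-base pieces occurred elsewhere in the genome. A stretch 51.8 kb downstream of the growth factor gene Igf2 covered 12.2 kb in XX and 5.60 kb in XY.

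Pax3, a transcription factor of the neural crest and of muscle progenitors, had 8 solitary stretches. They covered 46.4 kb in the XX list, 57.8 kb in the XY list and 39.8 kb in both, and the XY list covered more bases in all but the stretch 85.2 kb downstream. The start of Pax3 carried H3K27Me3 in both lists and H3K27Ac in neither. A stretch 14.6 kb downstream of the TSS covered 6.80 kb in XX and 9.80 kb in XY. Another, 69.8 kb downstream, covered 11.4 kb in XX and 14.2 kb in XY. The widest solitary stretch of all, 208 kb downstream and beyond the end of the gene, covered 15.4 kb in XX and 16 kb in XY.

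Skap1, a T cell adaptor gene next to the Hoxb cluster, had more stretches than any other gene. It was nearest to 9, of which 8 lay inside the gene, and they covered 41.2 kb in XX and 41.8 kb in XY. Single stretches differed more than the sum, with 8.40 kb in XX and 2.40 kb in XY for one and 3.80 kb in XX and 10.8 kb in XY for another. Got2, the mitochondrial aspartate aminotransferase, had 5, all upstream, and its own start carried H3K27Ac and no H3K27Me3 in both lists. Gm12830, Gm7112, Gm9966, Med13l, Osbp2, Rasgrf1 and Shb had 4 each. Those of Gm7112 lay 212 to 265 kb away, and those of Med13l, a Mediator subunit, 219 to 479 kb away. Of the other genes, 1169 had 1 solitary stretch, 143 had 2 and 26 had 3.

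The densest window of 1 Mb was that of the Hoxb cluster and Skap1, chr11:96000001-97000000, with 12 solitary stretches. The next, chr12:87000001-88000000, had 8 and contained Esrrb, an orphan nuclear receptor of the pluripotency network. Esrrb was nearest to 3 of the 5 solitary stretches beside 20 pluripotency regulators, the others being Klf5 and Nr5a2. One, 55.9 kb upstream of an Esrrb TSS, covered 6.80 kb in XX and 2.80 kb in XY. Another, 24.4 kb downstream of the nearest of its TSSs, covered 15.4 kb in XX and 7.60 kb in XY, and the last 6.80 kb in XX and 8.0 kb in XY. Between the first and the second of these, H3K27Ac was listed from 100.1 to 162.1 kb beyond the 5′ end of Esrrb in XX and from 100.7 to 163.3 kb in XY ES cells, where the gene model ends at 160.5 kb. Klf5 and Nr5a2 had 1.40 kb each in XX and 3.20 and 3.80 kb in XY. The window with the next highest count, chr8:112000001-113000000, had 7, all with more bases in the XX list. The others among the 5 densest windows were more even. Stretches with more XX and with more XY bases numbered 6 and 5 in the window of Skap1 and 4 and 4 in that of Esrrb. They numbered 2 and 4 in chr7:103000001-104000000 and 3 and 3 in chr8:98000001-99000000. Of all solitary stretches 49.9% had more XX bases, and the balances of windows were not tested. Across the autosomes 923 of 2482 windows held a solitary stretch and 26 held 5 or more, with 0.464 to 0.968 stretches per Mb by chromosome.

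**Figure D5:**
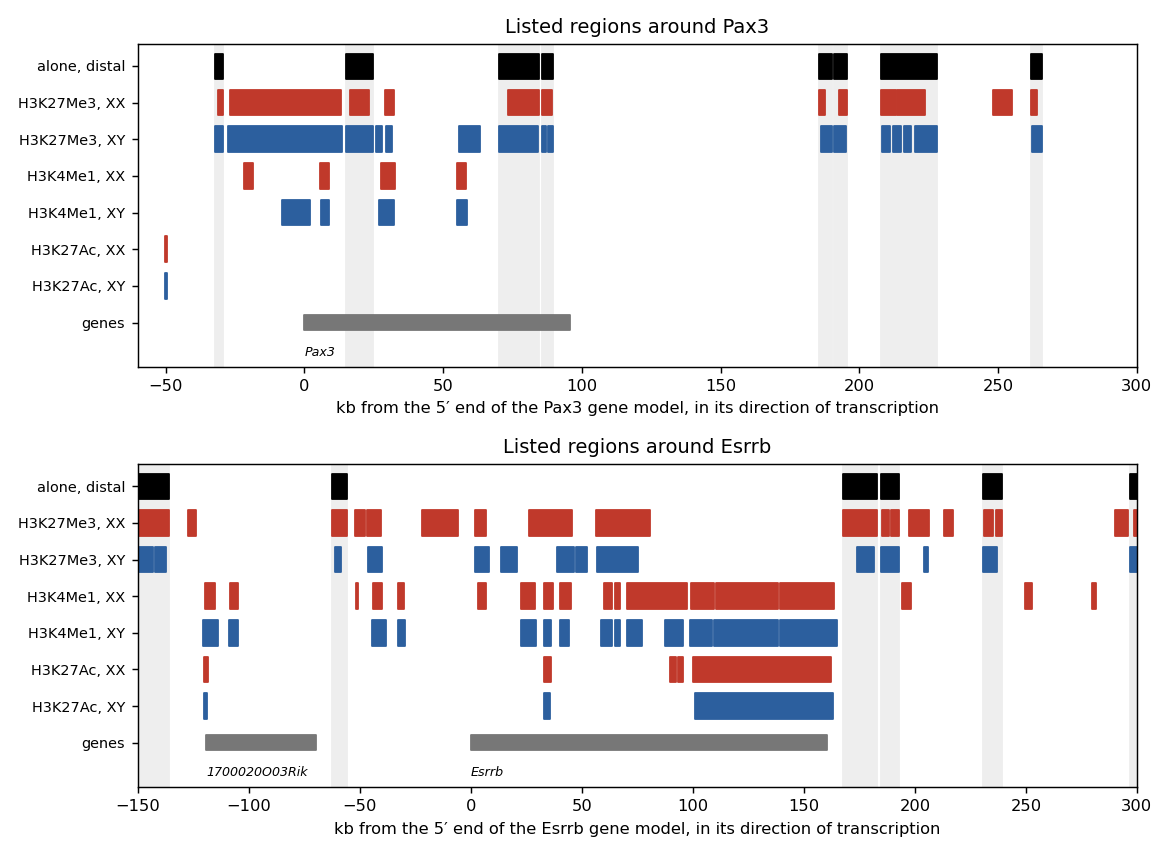
Regions listed for H3K27Me3, H3K4Me1 and H3K27Ac in XX (red) and XY (blue) ES cells around Pax3 (top) and Esrrb (bottom), by distance in kb from the 5′ end of the gene model; black bars and grey bands are solitary stretches and grey bars are protein-coding genes. At Pax3 the 8 stretches lie inside and on both sides of the gene with few other marks, and at Esrrb they flank a 3′ part covered by H3K27Ac and H3K4Me1.

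Short motifs at the centres of the stretches were compared with the genome. The motif GGTCTCTAA, the core bound by Prdm14, was searched in the central 1 kb and lay in 15 of 1583 solitary stretches (0.948%, 0.531 to 1.56%), in 1.16% of poised stretches and in 0.686% of 2393222 windows of 1 kb across the autosomes. GAGAGAGA lay in 19.9% of solitary, 20.6% of poised and 19.3% of 1-list stretches and in 15.7% of windows. CACACACA lay in 28.4% of solitary, 29.5% of poised and 28.5% of 1-list stretches and in 25.4% of windows. GCGCGC lay in 3.22% of solitary stretches, 5.48% of poised stretches, 18% of gene start stretches and 1.67% of windows. All 4 motifs were searched on both strands, none contains another, and a match is not a binding site.

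Few of the stretches consisted mainly of pieces with an exact copy elsewhere in the genome. Pieces of 50 bases were taken every 50 bases and matched on either strand without mismatch. Repeats whose copies have diverged were therefore not counted. Of the 50-base pieces of a stretch a median of 2.29% occurred elsewhere in the genome, against 2.22% in poised stretches. In 16 solitary stretches (1.01%) and 10 poised stretches (0.609%) over 50% of the pieces did. The part of repeats in the calling of these regions was not tested.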

How the data were processed

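ChIP-seq libraries of 2 XX and 2 XY ES cell lines were made for H3K27Ac, H3K27Me3 and H3K4Me1 (H3K4M1 in the labels). Per the methods, reads were aligned with Bowtie2 at default settings and handled with Bedtools. Bowtie, deepTools and mm9 stand in the submitters' processing notes. The authors deposited 1 list of regions per sex and mark with no count, score or other signal (chromosome, start and end alone). Not given in the sources used here are the caller, its threshold, the treatment of IgG and input and how lines were pooled. Every region follows a 200 bp grid, and 4 end up to 79 bp past the end of chromosome 4.

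Widths, overlaps and distances were computed in Python 3.11.15 with NumPy 2.4.6 and SciPy 1.17.1, with genes from GENCODE M1 on NCBIM37, the assembly of mm9. Overlaps were checked against Bedtools 2.31.1 (30 of 30 counts equal), and the steps were tested on simulated data. Shares of stretches were compared by two-sided Fisher's exact tests, with Benjamini-Hochberg adjustment over 8 tests at 0.05. Regions that lie in neighbouring bins of the grid do not overlap and were not merged, which applied to 23 solitary stretches and another H3K27Me3 stretch. The members, gene lists and tests were chosen with earlier results of these data known.

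The text names the 10 stretches with most bases in both lists, the 10 with most CpGs per kb, the 5 at each end of the XX over XY ratio, the 5 widest shared ones that hold another gene start, up to 3 per gene list, genes nearest to at least 4 stretches and the 5 windows of 1 Mb with most stretches, of which some are given only by count. Genes named for background, and further examples within a list, were chosen after their values were seen.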

Additional observations from a re-analysis of the deposited data

Results flagged for a closer look

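Chromosome X lies outside the definition and carried stretches of the same kind. Of 308 merged H3K27Me3 stretches on chromosome X, 87 were in both lists and 19 met every other step. The XX list covered more bases in 13 of the 19 and the XY list in 6. A further 70 were alone and distal in the XX list only and 31 in the XY list only. This was noticed as signal in regions that the comparisons above do not use. On chromosomes 1 to 19 the counts of such stretches were 2831 in the XX list only and 1613 in the XY list only. The difference was not tested.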

How the results depend on the processing

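Under 12 alternatives, 91 of 101 values kept their direction and their side of the threshold or stayed within the limit set, and no tested difference turned round. The number of solitary stretches ranged from 1095 to 1773, and the odds ratio for CpG islands against poised stretches from 0.272 to 0.38. The share with more XX bases moved to 46.7% where at least 50% of a stretch had to be covered in each list, 60.6% with lists of equal length and 46.3% for widths of 2 to 5 kb, where the balance turned and 47.04% had more XY bases. At those widths, the odds ratios against 1-list stretches were 1.10 for CpG islands (exact tests, adjusted p = 0.439), 0.840 for gene bodies (0.124) and 1.0 for other gene starts (1), and none passed the threshold. The odds ratio for gene bodies lost its call over 10 kb from a TSS, at 0.882 against poised (exact tests, adjusted p = 0.174) and 0.869 against 1-list stretches (0.0848), and against poised stretches with regions up to 1 kb apart merged, at 0.853 (0.086). With gene starts taken within 5 kb, the odds ratio for H3K27Me3 at the nearest start against 1-list stretches passed it, at 1.15 (exact test, adjusted p = 0.0254). No paired analysis was possible because each list pools the lines of a sex and has no column per line, and for the same reason no line could be left out. Absence from a list is not absence of the mark, since depth and threshold are unknown, and a stretch counted as solitary may carry H3K4Me1 or H3K27Ac below the threshold.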
